A study of Mus musculus with 18 samples.

Results

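RNA of PD cells was compared with that of PreL cells, 2 of the 6 germ cell populations of the series, over all expressed genes. The comparison takes 6 of the 18 libraries, PD replicates 1 to 3 against PreL replicates 1 to 3, chosen by their labels. The labels give the names only in short; by common usage they mean pachytene and diplotene spermatocytes (PD) and preleptotene spermatocytes (PreL), with the population labelled LZ (leptotene and zygotene) between them. Both groups were sorted from testes of adult male mice that carry Stracre-GAG-tdTomato, a Cre transgene with a tdTomato reporter, so the transgenes are shared by PD, PreL and LZ and no group lacks them. The strain label reads C57BL/6 in all 9 libraries of PD, PreL and LZ. Some levels are also set against the mean of the population labelled RS, by common usage round spermatids. The cell type that drives the Cre, the gates that set PD apart from PreL, and whether a library holds 1 animal or several are not stated in the labels. The p-values therefore measure the spread between replicate libraries, which may be technical. That spread was estimated over all 18 libraries of the series and not over the 6 compared.

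Preleptotene cells make their last copy of the genome before meiosis and switch on the meiotic programme. In leptotene and zygotene the chromosomes are cut and paired, and in pachytene they stand fully synapsed, mature their crossovers and silence the unpaired X and Y chromosomes. Pachytene cells also begin to store the transcripts from which the sperm head, tail and energy supply are later built, because transcription stops before the sperm cell is finished. PD against PreL shows what stays different once the events of LZ have passed.

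Levels are CPM, read counts over library totals that were rescaled by a factor for each library (TMM). The factors were 0.788 to 0.794 in PD and 1.12 to 1.354 in PreL. CPM therefore do not add up to a common total, and stand higher in PD and lower in PreL than with the totals alone. Levels are given as mean ± SD of 3 libraries (n = 3) unless each library is listed. A log2 fold change is PD over PreL, from edgeR. The standard error beside it was derived, as the absolute log2 fold change divided by the square root of the F statistic of its test. A gene is said to have risen or fallen when its adjusted p was under 0.05 and its change at least 2-fold. Gene lists and their members were chosen with earlier results of these data known. Counts over a list therefore describe its members and are not a test. CPM are not divided by transcript length, so they compare 1 gene across samples and not 1 gene with another. In sorted bulk RNA, fewer cells of a type and less RNA per cell cannot be told apart.

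The 6 libraries held 12112648 to 15712158 counts each. Correlations of log2 CPM within a group were 0.986 to 0.989 for PD and 0.961 to 0.983 for PreL, and each pair of libraries differed by 5.98 to 52.8 times the counting variance, so none is a copy of another. PreL replicate 2 stands apart. Over 85 genes of sperm structure and energy that rose in PD and reached 20 CPM there, it stood at a median of 4.51% of the PD level, against 0.561% and 1.31% in PreL replicates 1 and 3. The matching medians in LZ were 1.39%, 4.34% and 1.4%. Leaving it out moved the fold change of 64 of the 239 called genes named here by over 1.5 times, in each case to a larger change. Where leaving out 1 library moves a printed log2 fold change of a called gene that far, the value without that library is given with it. The lists of late genes are given both ways. Folds printed as a bound or as a ratio of few PD reads carry no such value. Several of these genes moved that far too, for example Tk1 from -9.24 to -12.31 on the log2 scale without PD replicate 1. The labels were checked on a few defining genes. Stra8, which opens meiosis, was at 0.43 ± 0.224 CPM in PD, against 190.2 ± 75.3 CPM in PreL, and the replication helicase gene Mcm5 at 10.4 ± 2.08 CPM in PD, against 401 ± 80.2 CPM in PreL. Piwil1, the pachytene PIWI gene, was at 1992 ± 421 CPM in PD, against 20.3 ± 15.7 CPM in PreL, and Hspa2, a chaperone gene of pachytene cells, at 3492 ± 205 CPM in PD, against 105 ± 41.6 CPM in PreL. Each was higher in the group whose name it marks than in the other, although Stra8 and Mcm5 were higher still in LZ, at 1054 and 697 CPM. Markers of Sertoli cells summed to 4.73 to 8.59 CPM over 12 tested genes in the PD libraries, against 19.4 to 23.9 CPM in the PreL libraries. Gata4, Rhox5 and Tsx had no read in PD; Rhox5 was not called without PreL replicate 3, at -2.83. Of these 12 genes 8 fell and 1 rose, against 34.4% and 37.9% of all tested genes. The secreted chaperone gene Clu was at 0.625 ± 0.226 CPM in PD, against 13.3 ± 0.464 CPM in PreL, and Inha at 4.41 ± 2.37 CPM in PD, against 1.11 ± 0.0721 CPM in PreL. The single tested Leydig cell gene, Star, was at 4.08 ± 0.87 CPM in PD, against 3.38 ± 0.811 CPM in PreL. The 6 myoid and endothelial genes summed to 7.71 to 10.3 CPM in PD and 5 to 9.12 CPM in PreL, and 4 of the 6 rose while 1 fell. The 2 tested macrophage genes summed to 0.728 to 1.01 CPM in PD and 0.604 to 0.857 CPM in PreL. The part of these cell types in the results was not tested.

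Most of the transcriptome differed between PD and PreL. Of the 46603 genes counted, 18547 had enough reads to be tested. Of these, 7038 rose (37.9%) and 6385 fell (34.4%) in PD, 72.4% in all, and 5124 passed in neither direction. Without the 2-fold condition 43.4% were higher and 40.2% lower. The genes that rose took 68.9% to 70.8% of all reads in the PD libraries, against 13.6% to 17.4% in the PreL libraries. The genes that fell took 5.72% to 6.54% of reads in PD, against 47.2% to 50.9% in PreL. The median change of a risen gene was 11-fold and that of a fallen gene 9.73-fold, and 1619 rises and 1786 falls were at least 32-fold. The median log2 fold change of all tested genes was 0.11 with TMM scaling and −0.45 with the total library size only, so changes near 2-fold depend on the scaling. Without PD replicate 1, 2 or 3 that median was -0.09, -0.09 and -0.10, so calls near 2-fold also shift when a PD library is left out. Of the genes named below, the rises of Atr, Ccnb2, Dmrtb1, Ptbp2, Swi5, Sycp2, Sycp3 and Tuba3a were no longer called with the total library size only. Brca2, Etv5, Meioc, Pcna, Rfx3, Setdb1, Slc25a31, Smc1b, Tex101 and Tex12, not called here, were called lower with it. Without PreL replicate 2 the counts were 7186 higher (37.6% of the 19132 genes then tested) and 6576 lower (34.4%), of which 6845 and 6271 were among those called with all libraries.

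**Figure D1:**
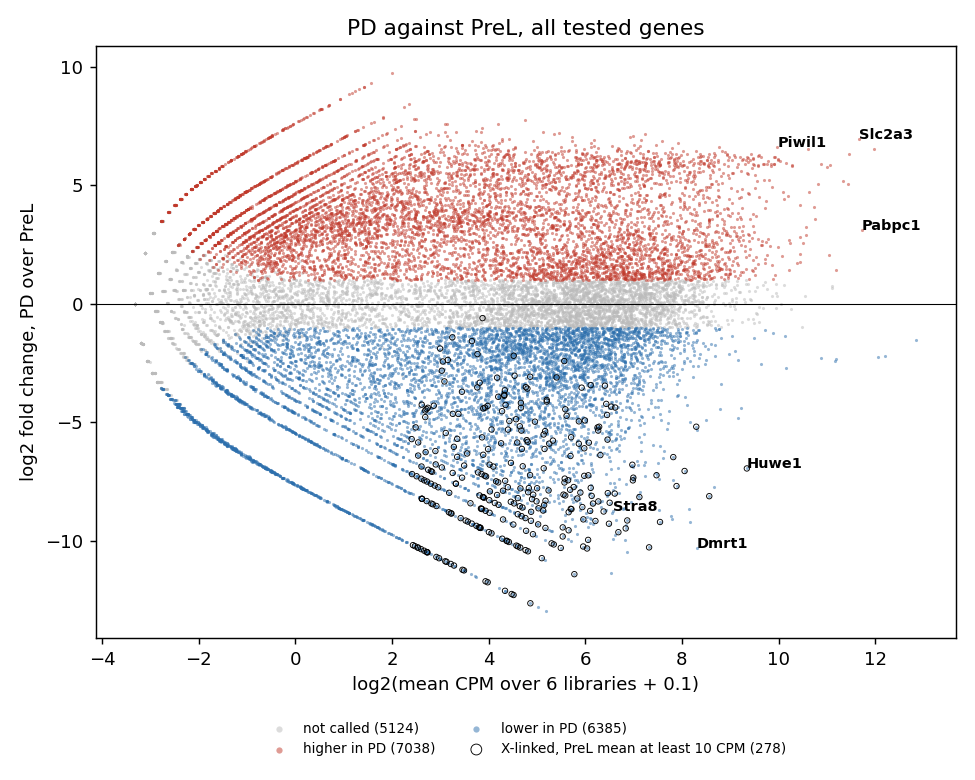
Each point is 1 of the 18547 tested genes, with log2 of its mean CPM over the 6 libraries plus 0.1 on the x axis and its log2 fold change, PD over PreL, on the y axis. Red points (7038) are higher and blue points (6385) lower in PD; 278 X-linked genes with a PreL mean of at least 10 CPM are ringed and lie below 0.

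The largest rises were spread over many functions. They were taken among called genes of at least 50 CPM in PD whose groups did not overlap. Predicted, Riken and mitochondrially encoded genes were left out. Slc2a3 encodes a high-affinity glucose transporter. It stood at 6274, 6839 and 6235 CPM in the PD libraries, against 11.4, 111 and 36.6 CPM in the PreL libraries (log2 fold change 6.93 ± 0.9, adjusted p = 1.87e-06). Among the PreL libraries replicate 2 was the highest. Spdye4b, of the Speedy family of kinase activators, stood at 87.7, 92.7 and 81.7 CPM in the PD libraries, against 0.0569, 1.1 and 0.571 CPM in the PreL libraries (log2 fold change 7.21 ± 0.41, adjusted p = 4.98e-11). Pou5f2, for a POU transcription factor, stood at 241, 223 and 262 CPM in the PD libraries, against 0.512, 3.19 and 1.71 CPM in the PreL libraries (log2 fold change 7.05 ± 0.65, adjusted p = 2.6e-08, and 7.81 without PreL replicate 2). Hist2h2be, a replication-type histone H2B gene, rose to 81.4 ± 11 CPM in PD, against 0.537 ± 0.537 CPM in PreL. Prss43, for a testis serine protease, reached 144 ± 4.65 CPM in PD, against 1.15 ± 1.21 CPM in PreL, and Cers3, for a ceramide synthase of very long chains, 283 ± 55.2 CPM in PD, against 2.32 ± 2.94 CPM in PreL. Pnmal1 (7.22 ± 0.66 on the log2 scale) and Crtam (6.77 ± 0.57), for an immune cell surface receptor, complete the 8 largest. Pnmal1 had 23 reads in PreL, nearly all of them in replicate 2. Without PreL replicate 2 the log2 fold changes of Slc2a3, Spdye4b, Pnmal1 and Crtam were 8.07, 8.2, 9.9 and 7.57.

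Several of the largest falls, taken by the same rule with at least 50 CPM in PreL, left no more than a handful of reads in PD. Pth1r, for the parathyroid hormone receptor, had 0, 0 and 0 CPM in the PD libraries, against 76.9, 58.7 and 83.5 CPM in the PreL libraries. With 0 reads in PD, and a floor of 3 reads over its 3 libraries, it was at least 782-fold lower in PD. Sdc1, which encodes the cell-surface proteoglycan syndecan-1, was at least 694-fold lower, at 0 ± 0 CPM in PD, against 64.7 ± 16.9 CPM in PreL. The X-linked chloride transporter gene Clcn5 was at least 622-fold lower, at 0 ± 0 CPM in PD, against 58 ± 11.5 CPM in PreL. E2f3, whose product drives entry into S phase, had 1 read over the 3 PD libraries and 0.0303 ± 0.0525 CPM in PD, against 71.7 ± 11.1 CPM in PreL. It was 2303-fold lower, with an exact 95% counting interval of 413 to 90999. Arhgef17, for a guanine nucleotide exchange factor, had 2 reads in PD and was 2992-fold lower, with an exact 95% counting interval of 828 to 24709. The X-linked Ammecr1 had 1 read in PD and was 3491-fold lower, with an exact 95% counting interval of 626 to 137901. Irak1, X-linked too and for a kinase of innate immune signalling, had 1 read and was 2226-fold lower, with an exact 95% counting interval of 399 to 87964. Mfge8, for a secreted milk-fat glycoprotein, was at 0.154 ± 0.188 CPM in PD, against 233 ± 48.8 CPM in PreL (log2 fold change -10.47 ± 0.38, adjusted p = 3.27e-13, and -12.25 without PD replicate 2).

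The 8 called genes with the most reads differed as well. In PD they were Dnah8, Slc2a3, Pabpc1, Ldhc, Ybx2, Ybx3, Atp8b3 and Phf7. Atp8b3, for a lipid flippase of the sperm head, was at 4222 ± 139 CPM in PD, against 72.2 ± 85 CPM in PreL, and Phf7, a chromatin reader gene of the male germline, at 4029 ± 99.9 CPM in PD, against 74.5 ± 66.7 CPM in PreL. In PreL they were the mitochondrially encoded mt-Co1, mt-Cytb, mt-Nd1, mt-Nd2, mt-Nd5 and mt-Nd4, followed by Hsp90ab1 and Polr2a. With mitochondrial and predicted genes left out, a choice made after the values were seen, the 9 highest in PreL were Hsp90ab1, Polr2a, Rpl4, Huwe1, Tuba3a, Mki67, Ncl, Top2a and Rpl13a. The alpha-tubulin gene Tuba3a rose, to 3389.8 ± 189 CPM in PD, against 1254 ± 362 CPM in PreL, and the other 8 fell. The proliferation marker gene Mki67 was at 53.7 ± 4.83 CPM in PD, against 1135 ± 397 CPM in PreL (log2 fold change -4.4 ± 0.23, adjusted p = 1.26e-11). Ncl, for the nucleolar protein nucleolin, was at 38.6 ± 8.78 CPM in PD, against 1107 ± 199.7 CPM in PreL (log2 fold change -4.84 ± 0.17, adjusted p = 2.44e-13). Polr2a, for the large subunit of RNA polymerase II, was at 635 ± 51.5 CPM in PD, against 1616 ± 427 CPM in PreL, and the topoisomerase gene Top2a at 384 ± 32 CPM in PD, against 1052 ± 128 CPM in PreL. The ribosomal protein genes Rpl4 and Rpl13a were at 566 ± 53.8 and 1336 ± 365 CPM and 185 ± 15.7 and 965 ± 509 CPM in PD and PreL; they have many near-identical copies in the genome, so their reads may be shared. Long transcripts give more reads, so these names do not rank the genes by molecules.

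**Figure D2:**
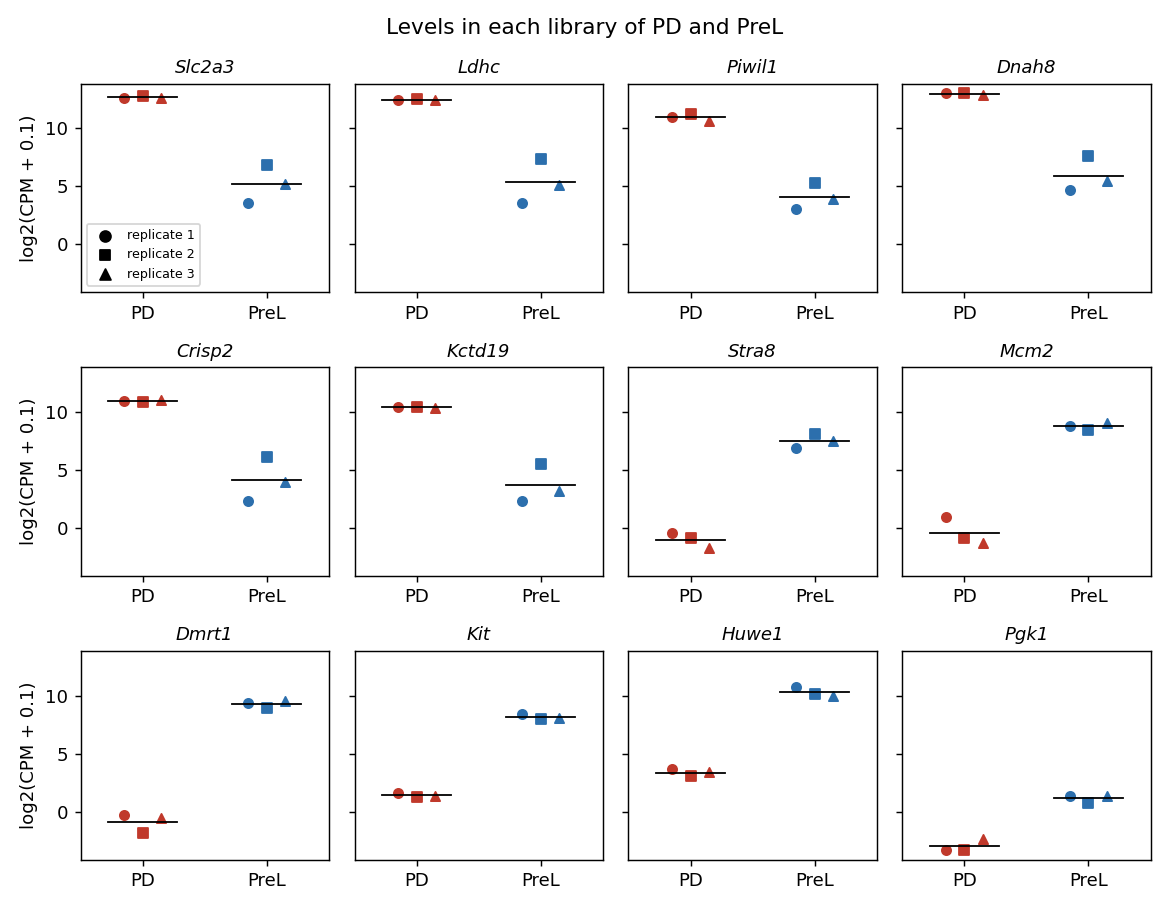
Log2 of CPM plus 0.1 for 12 genes in each library, PD left and PreL right, with a symbol for each replicate and a bar at the mean of the 3 log values. PreL replicate 2 (square) is the highest PreL library for Slc2a3, Ldhc, Piwil1, Dnah8, Crisp2 and Kctd19, and all 3 PD libraries remain above it for these 6 genes.

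The machinery of DNA replication was lower in PD. Of 41 tested genes, 27 fell and 1 rose, with a median log2 fold change of −2.81, against 34.4% and 37.9% of all tested genes and a median of 0.11. Mcm2, a subunit of the helicase that opens replication origins, stood at 1.83, 0.455 and 0.293 CPM in the PD libraries, against 441, 347 and 527 CPM in the PreL libraries (log2 fold change -8.97 ± 0.39, adjusted p = 1.58e-12, and -10.4 without PD replicate 1). The groups did not overlap. Its partners Mcm4 (2.09 ± 1.07 and 245 ± 38.8 CPM in PD and PreL) and Mcm5 (10.4 ± 2.08 and 401 ± 80.2 CPM) fell as well, whereas Mcm7 was at 236 ± 9.8 and 263 ± 49.4 CPM and was not called (log2 fold change -0.16 ± 0.12, adjusted p = 0.223). Cdt1, which loads the helicase, fell to 0.865 ± 0.44 CPM in PD, against 106 ± 21 CPM in PreL. Orc1, of the origin recognition complex, fell to 1.87 ± 0.233 CPM in PD, against 81.7 ± 10.1 CPM in PreL. The nucleotide supply genes Tyms (0.504 ± 0.24 and 40.3 ± 6.87 CPM in PD and PreL) and Rrm2 (16.7 ± 3.95 and 152 ± 9.92 CPM) fell, while Rrm1, for the large subunit of the same reductase as Rrm2, was at 297 ± 12.6 and 355 ± 59.2 CPM and did not pass. Pola1, the X-linked catalytic subunit of the primase polymerase, had 1 read in PD and was 387-fold lower, with an exact 95% counting interval of 69.2 to 15302. The thymidine kinase gene Tk1 had 2 reads in PD and was 689.6-fold lower, with an exact 95% counting interval of 191 to 5698. Pcna, the sliding clamp, was at 124 ± 13 CPM in PD, against 217 ± 68.6 CPM in PreL, and stayed under the 2-fold condition (log2 fold change -0.81 ± 0.21, adjusted p = 0.00235). It passed, as lower, without PreL replicate 2 or any 1 of the PD libraries, at -1.15 to -1.01. The one rise was Chaf1a, for the large subunit of a histone chaperone that follows replication forks, at 366 ± 7.7 CPM in PD, against 114 ± 12.9 CPM in PreL (log2 fold change 1.68 ± 0.11, adjusted p = 4.24e-10). Its partner Chaf1b was at 31 ± 2.89 CPM in PD, against 16.8 ± 5.4 CPM in PreL (log2 fold change 0.89 ± 0.22, adjusted p = 0.00144) and was not called, although it passed without PreL replicate 3, at 1.16.

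Regulators of spermatogonia still present in PreL were mostly at or near 0 in PD. Of 20 tested genes 14 fell and 1 rose, against 34.4% and 37.9% of all, with a median log2 fold change of −4.39. Dmrt1, a transcription factor that holds germ cells in the mitotic programme, stood at 0.732, 0.182 and 0.586 CPM in the PD libraries, against 659.6, 487 and 758 CPM in the PreL libraries (log2 fold change -10.29 ± 0.36, adjusted p = 2.31e-13, and -10.93 without PD replicate 1). Kit, the stem cell factor receptor gene, fell to 2.61 ± 0.357 CPM in PD, against 295 ± 45.3 CPM in PreL (log2 fold change -6.82 ± 0.18, adjusted p = 3.5e-14). The cyclin D1 gene Ccnd1 fell to 0.747 ± 0.0941 CPM in PD, against 245 ± 42.7 CPM in PreL, and Crabp1, for a protein that binds retinoic acid, to 0.217 ± 0.05 CPM in PD, against 136 ± 62.7 CPM in PreL. The X-linked homeobox gene Esx1 fell to 2.71 ± 1.02 CPM in PD, against 754 ± 163 CPM in PreL. The DNA methyltransferase genes moved unequally: Dnmt3a was at 1.69 ± 0.451 and 203 ± 31.9 CPM in PD and PreL, Dnmt3b at 3.55 ± 1.18 and 66 ± 12.4 CPM and Dnmt1, the maintenance enzyme, at 219 ± 30.2 and 874 ± 152 CPM. All 3 fell, with log2 fold changes of -6.91 ± 0.23, -4.21 ± 0.23 and -2.0 ± 0.23. Uhrf1, the partner of Dnmt1, was at 161 ± 16.4 and 182 ± 18.2 CPM and was not called (log2 fold change -0.18 ± 0.13, adjusted p = 0.223). Ccnd2, Nanos3 and Etv5 were under 2 CPM in both groups and did not pass. Ccnd2 was called lower without PD replicate 1, and Etv5 without PD replicate 1 or 3 (log2 fold changes -2.0, -1.35 and -1.03). The rise was Dmrtb1, a relative of Dmrt1 needed at the turn from mitosis to meiosis, at 1737 ± 110.3 CPM in PD, against 650.4 ± 147 CPM in PreL (log2 fold change 1.42 ± 0.23, adjusted p = 2.83e-05). It was lower in LZ, at 96.5 CPM.

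Of 8 tested genes that start meiosis 5 fell and 1 rose, against 34.4% and 37.9% of all. Their median log2 fold change was −2.75. Stra8, the retinoic acid target that opens the programme, stood at 0.64, 0.455 and 0.195 CPM in the PD libraries, against 119, 269 and 183 CPM in the PreL libraries (log2 fold change -8.74 ± 0.46, adjusted p = 1.54e-11, and -9.39 without PD replicate 1). Its LZ mean was higher than both, at 1054 CPM. Its partner Meiosin, listed in the annotation as Gm4969, was at 129 ± 50.1 CPM in PreL, 825 ± 103 CPM in LZ and 0.274 ± 0.273 CPM in PD (log2 fold change -8.81 ± 0.52, adjusted p = 7.71e-11, and -10.0 without PD replicate 2). Dazl, for a germ cell RNA-binding protein, fell to 39.1 ± 9.21 CPM in PD, against 848 ± 85.1 CPM in PreL, and Ythdc2, for the helicase that works with Meioc, to 40.3 ± 7.31 CPM in PD, against 132 ± 26.5 CPM in PreL. Meioc itself was at 294 ± 15.1 CPM in PD, against 437 ± 50.7 CPM in PreL, and was not called (log2 fold change -0.57 ± 0.12, adjusted p = 0.000372). Tex19.1, which guards the genome against retrotransposons, fell to 8.19 ± 3.08 CPM in PD, against 114 ± 23.9 CPM in PreL. Rbm46, for a germ cell RNA-binding protein, was at 95.5 ± 8.11 CPM in PD, against 75.3 ± 9.16 CPM in PreL, and was not called. The one rise was Ddx4, the germ cell helicase gene known as Vasa in flies, at 868 ± 51.1 CPM in PD, against 277 ± 12 CPM in PreL (log2 fold change 1.65 ± 0.09, adjusted p = 1.9e-11).

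Many of the genes that act on meiotic chromosomes were highest in LZ, and differed in where they stood once PD was reached. Comparisons with LZ share the PreL or PD libraries with PD against PreL, so levels are given side by side. For 13 of 14 genes of the chromosome axis and synaptonemal complex, which joins paired chromosomes, the LZ mean was above both PreL and PD. Against PreL, 3 of the 14 were higher in PD, 5 were lower and 6 passed in neither direction (median log2 fold change −0.50). Among all tested genes 37.9% rose and 34.4% fell. The falls were close to that share, so what follows describes single genes. Rad21l, for a meiotic cohesin subunit, was at 16.4 ± 5.91 CPM in PreL, 199.8 ± 33.6 CPM in LZ and 0.0305 ± 0.0528 CPM in PD. It had 1 read in PD and was 527-fold lower, with an exact 95% counting interval of 94.3 to 20837. Rec8, for another meiotic cohesin subunit, was at 100.3 ± 8.86 CPM in PreL, 114 ± 16.6 CPM in LZ and 20.1 ± 3.02 CPM in PD, and fell in PD against PreL (log2 fold change -2.32 ± 0.16, adjusted p = 6.61e-10). Sycp1, for the transverse filament of the complex, was at 376 ± 93.7 CPM in PreL, 958 ± 114 CPM in LZ and 164 ± 36.6 CPM in PD (log2 fold change -1.19 ± 0.19, adjusted p = 1.56e-05). Syce2, for a central element protein, fell too (log2 fold change -2.46 ± 0.19, adjusted p = 2.49e-09), as did 4930447C04Rik, the annotation's name for the central element gene Six6os1 (log2 fold change -3.21 ± 0.29, adjusted p = 2.17e-08, and -3.85 without PD replicate 1). In the other direction, Sycp2, an axis component, was at 183 ± 43 CPM in PreL, 1059.8 ± 131 CPM in LZ and 462 ± 52.4 CPM in PD, and stayed above PreL in PD (log2 fold change 1.34 ± 0.17, adjusted p = 1.66e-06). Sycp3, its axis partner, was at 67.2 ± 15.1 CPM in PreL, 359 ± 68.5 CPM in LZ and 138 ± 11.8 CPM in PD (log2 fold change 1.04 ± 0.17, adjusted p = 1.84e-05), a call lost when PreL replicate 1 or any of the PD libraries was left out, at 0.72 to 0.89. Syce1, for a central element protein, was highest in PD, at 147 ± 6.47 CPM in PreL, 357 ± 39.8 CPM in LZ and 759 ± 17 CPM in PD (log2 fold change 2.37 ± 0.1, adjusted p = 1.85e-12). The cohesin gene Smc1b was at 408 ± 61.6 CPM in PreL, 1193 ± 148 CPM in LZ and 226 ± 19.8 CPM in PD, Hormad2 at 20.3 ± 2.65 CPM in PreL, 112 ± 13.3 CPM in LZ and 17.7 ± 3.33 CPM in PD, and Tex12 at 22 ± 6.37 CPM in PreL, 114 ± 22.8 CPM in LZ and 12.6 ± 4.4 CPM in PD. None of these 3 passed for PD against PreL with all libraries. Smc1b was called lower when any 1 of the PD libraries was left out (log2 fold change -1.17 to -1.06), and Tex12 when PD replicate 1 or 2 was (-1.29 and -1.14).

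Most genes for making DNA breaks were lower in PD, while Spo11 was higher. Of 9 tested genes 6 fell and 1 rose, against 34.4% and 37.9% of all (median log2 fold change −3.30). In 8 of the 9 the mean was highest in LZ. Prdm9, the methyltransferase that marks recombination sites, was at 57.6 ± 14.1 CPM in PreL, 304 ± 48.6 CPM in LZ and 0.526 ± 0.342 CPM in PD (log2 fold change -6.75 ± 0.34, adjusted p = 9.99e-12, and -7.66 without PD replicate 1). Mei4, needed with Rec114 to form breaks, was at 13.3 ± 2.14 CPM in PreL, 27.5 ± 6.22 CPM in LZ and 0.0326 ± 0.0564 CPM in PD. It had 1 read in PD and was 424-fold lower, with an exact 95% counting interval of 75.8 to 16756. Rec114 itself fell to 0.713 ± 0.177 CPM in PD, against 14.7 ± 1.87 CPM in PreL, and Zcwpw1, a reader of the Prdm9 mark, to 20.7 ± 3.77 CPM in PD, against 252 ± 22.9 CPM in PreL. The 2 genes that passed in neither direction were Ccdc36, the annotation's name for Iho1 of the break machinery, at 50.9 ± 3.16 CPM in PD, against 62.7 ± 4.6 CPM in PreL (log2 fold change -0.3 ± 0.25, adjusted p = 0.274), and the axis gene Hormad1, at 93.8 ± 14.6 CPM in PD, against 55.8 ± 12.5 CPM in PreL (log2 fold change 0.75 ± 0.17, adjusted p = 0.000561). Spo11 encodes the nuclease that cuts. It stood at 123, 127 and 121 CPM in the PD libraries, against 2.1, 7.03 and 3.14 CPM in the PreL libraries (log2 fold change 4.9 ± 0.3, adjusted p = 1.17e-10, and 5.56 without PreL replicate 2), with all PD libraries above all PreL libraries, and at 48.2 CPM in LZ.

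Of 12 tested strand invasion genes 5 rose and 4 fell, close to the 37.9% and 34.4% of all tested genes, so what follows describes single genes. The recombinase gene Dmc1 was at 80 ± 12.8 CPM in PreL, 538 ± 106 CPM in LZ and 0.854 ± 0.56 CPM in PD (log2 fold change -6.55 ± 0.31, adjusted p = 5.56e-12, and -7.44 without PD replicate 3). Tex15 was at 553 ± 102 CPM in PreL, 1702 ± 157 CPM in LZ and 17.4 ± 4.3 CPM in PD (log2 fold change -4.99 ± 0.23, adjusted p = 4.07e-12). Psmc3ip, for the Hop2 protein that helps Dmc1, rose to 232 ± 23.3 CPM in PD, against 44.5 ± 6.42 CPM in PreL (log2 fold change 2.38 ± 0.14, adjusted p = 6.53e-11). Its partner Mnd1 fell, at 0.956 ± 0.323 CPM in PD, against 2.47 ± 0.756 CPM in PreL (log2 fold change -1.36 ± 0.33, adjusted p = 0.00103). Hsf2bp, which brings Brca2 to meiotic breaks, and 4930432K21Rik, the annotation's name for Brme1, its partner, rose, with log2 fold changes of 2.39 ± 0.2 and 2.63 ± 0.26. Swi5, for a further recombinase cofactor, rose to 378 ± 14.8 CPM in PD, against 143 ± 32.2 CPM in PreL. Brca2, a recombinase loader, was at 204 ± 45.3 CPM in PreL, 678 ± 131 CPM in LZ and 119 ± 6.18 CPM in PD, and did not pass. It was called lower when any 1 of the PD libraries was left out, at -1.05 to -1.0.

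Of 14 tested crossover genes 5 rose, close to the 37.9% of all tested genes, and 3 fell, against 34.4%. Cntd1, a cyclin-like gene needed for crossover maturation, stood at 145, 129 and 146 CPM in the PD libraries, against 4.15, 9.23 and 4.43 CPM in the PreL libraries (log2 fold change 4.55 ± 0.26, adjusted p = 3.96e-11). Prr19, whose product acts with Cntd1, was at 198 ± 5.38 CPM in PD, against 37.9 ± 1.66 CPM in PreL (log2 fold change 2.39 ± 0.12, adjusted p = 5.99e-12). Mlh3, of the nuclease that resolves crossovers, rose to 123 ± 9.57 CPM in PD, against 37.8 ± 2.35 CPM in PreL. Hfm1, for a crossover helicase, was at 24.7 ± 7.56 CPM in PreL, 367 ± 53.7 CPM in LZ and 78.9 ± 17.3 CPM in PD. Tex11, X-linked and needed for crossovers, fell to 0.624 ± 0.235 CPM in PD, against 373 ± 79.8 CPM in PreL (log2 fold change -9.21 ± 0.26, adjusted p = 3.89e-14), and the nuclease gene Exo1 to 20.1 ± 6.21 CPM in PD, against 130.1 ± 17.9 CPM in PreL.

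Over all genes, the LZ mean lay between PreL and PD for 54.3% of the risen genes (3819) and for 57.9% of the fallen genes (3695). It was below both groups for 2919 risen genes, by at least 2-fold for 1025, and above both for 2482 fallen genes, by at least 2-fold for 806. Among the 5124 genes that passed in neither direction, LZ was at least 2-fold above both groups for 822 (16%) and at least 2-fold below both for 613 (12%). Of the called genes with LZ at least 2-fold above both, the 4 with the highest LZ mean were Tex15, Prss50, Taf7l and Sycp2. Prss50, for a testis protease, was at 442 ± 12.8 CPM in PreL, 1671 ± 347 CPM in LZ and 0.813 ± 0.393 CPM in PD (log2 fold change -9.07 ± 0.35, adjusted p = 4.56e-13). The chaperone gene Hspa5, of the endoplasmic reticulum, was at 871 ± 85.8 CPM in PreL, 2939 ± 389 CPM in LZ and 767 ± 69.6 CPM in PD, with no call for PD against PreL (log2 fold change -0.18 ± 0.11, adjusted p = 0.122). The histone methyltransferase gene Setdb1 was at 263 ± 32.8 CPM in PreL, 801 ± 140.2 CPM in LZ and 146 ± 11.4 CPM in PD, under the 2-fold condition. It was called lower when any 1 of the PD libraries was left out, at -1.17 to -1.06. The reverse shape, lowest in LZ, was seen in Tuba3a, Tuba3b and Fkbp4. Fkbp4, for a co-chaperone, was at 361 ± 57.6 CPM in PreL, 171 ± 9.35 CPM in LZ and 1153 ± 65.4 CPM in PD. The alpha-tubulin genes Tuba3a and Tuba3b are near-identical, so their reads cannot be fully assigned.

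**Figure D3:**
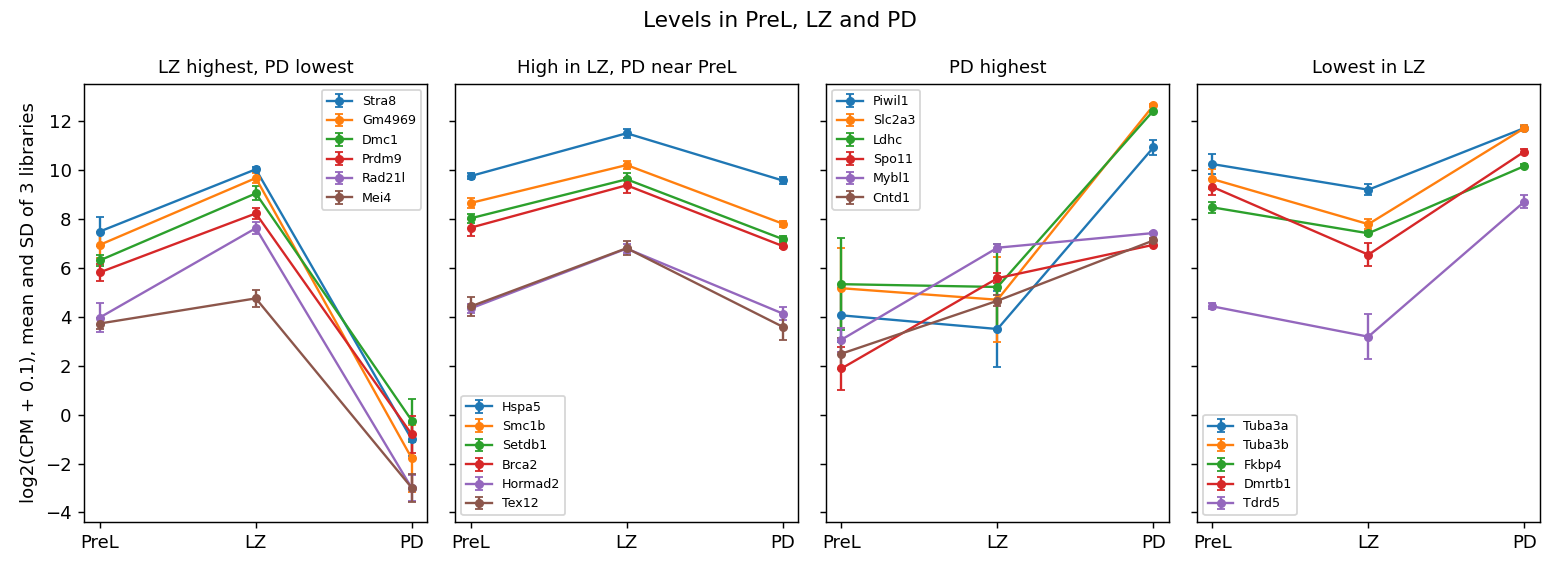
Log2 of CPM plus 0.1 in PreL, LZ and PD (points are means and bars SDs of 3 libraries) for genes in 4 panels by shape, chosen after the values were seen. Stra8, Gm4969, Dmc1, Prdm9, Rad21l and Mei4 are highest in LZ and below 1 CPM in PD, whereas Hspa5, Smc1b and the others of the second panel return to within 2-fold of PreL.

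Transcription regulators of pachytene cells rose. Of 18 tested genes 14 rose and 3 fell, against 37.9% and 34.4% of all, with a median log2 fold change of 3.92. Mybl1, which encodes A-MYB, a master activator of pachytene genes, stood at 170.4, 167 and 180.5 CPM in the PD libraries, against 7.05, 12.3 and 6.57 CPM in the PreL libraries (log2 fold change 4.31 ± 0.23, adjusted p = 2.37e-11). It was already at 114 CPM in LZ. Rfx2, a regulator of cilium and flagellum genes, rose to 921 ± 28.8 CPM in PD, against 56.6 ± 18.1 CPM in PreL, and its relative Rfx4 to 194 ± 4.41 CPM in PD, against 2.75 ± 3.72 CPM in PreL, while Rfx3 was at 10.3 ± 1.15 CPM in PD, against 17.2 ± 2.52 CPM in PreL, and did not pass (without PD replicate 1 it was called lower, at -1.09). Tcfl5, a factor that works with A-MYB, was at 1081 ± 95.2 CPM in PD, against 129 ± 2.31 CPM in PreL. Kctd19 and Zfp541, partners in a chromatin complex needed to leave pachytene, stood at 1342 ± 25.5 and 19.8 ± 22.7 CPM and at 702 ± 53.8 and 45.1 ± 22.1 CPM in PD and PreL. The heat shock factor family gene Hsf5 was at 612 ± 19.2 and 23.3 ± 9.3 CPM, Sox30 at 218 ± 10.8 and 11.8 ± 5.62 CPM and Crem, for the activator of spermatid genes, at 221 ± 10.1 and 12.3 ± 6.57 CPM. The testis-specific bromodomain gene Brdt was at 693 ± 22.7 and 64.7 ± 6.91 CPM. Gtf2a1l and Tbpl1, testis forms of general transcription factors, were at 538 ± 47.1 and 9.75 ± 11.4 CPM and 698 ± 36.9 and 59.8 ± 3.05 CPM. All of these rose. Taf7l, an X-linked general factor gene, fell to 3.96 ± 1.52 CPM in PD, against 527 ± 38.4 CPM in PreL, Nfyb to 9.8 ± 0.941 CPM in PD, against 79.2 ± 15.8 CPM in PreL, and Brwd1 to 61.9 ± 7.64 CPM in PD, against 166 ± 39.1 CPM in PreL.

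Because Mybl1, Rfx genes and Crem rose, promoters were searched for the letters these factors are known to bind. RefSeq promoter windows (GRCm38.p6, 250 bases before to 50 after a start) were found for 13179 of the 18547 tested genes. The MYB motif AACNGCC, on either strand, was in 16.4% of 6200 windows of risen genes and in 10.5% of 5842 windows of fallen genes. It was in 13.7% of windows of tested genes not called and in 12.1% of all 32851 windows. The X-box core GTTGCCATG bound by RFX factors was in 1.34% of windows of risen genes and 0.394% of those of fallen genes, against 0.773% of all. The CRE TGACGTCA bound by Crem was in 2.32% of windows of risen genes, 2.53% of those of fallen genes and 3.84% of those of genes not called, against 1.79% of all. No test was made, and a match is not a binding site. The windows of 4 risen genes are shown because they carry such letters, chosen after the search. Capitals mark the MYB motif, and in Spag6l also the CRE.
Piwil1, chr5:128735996-128736295, plus strand: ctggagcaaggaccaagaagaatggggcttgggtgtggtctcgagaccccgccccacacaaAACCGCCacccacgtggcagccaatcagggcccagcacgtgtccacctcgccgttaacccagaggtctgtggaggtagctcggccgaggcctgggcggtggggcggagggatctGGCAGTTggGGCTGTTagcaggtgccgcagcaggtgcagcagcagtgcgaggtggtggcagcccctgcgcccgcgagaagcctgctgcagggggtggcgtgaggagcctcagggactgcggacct
Catsperb, chr12:101404423-101404722, plus strand: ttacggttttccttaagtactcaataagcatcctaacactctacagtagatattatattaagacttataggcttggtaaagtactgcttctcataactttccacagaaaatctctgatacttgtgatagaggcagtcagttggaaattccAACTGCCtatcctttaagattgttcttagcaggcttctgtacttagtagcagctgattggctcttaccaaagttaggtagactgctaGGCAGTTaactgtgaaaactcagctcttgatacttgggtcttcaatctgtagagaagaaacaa
Spag6l, chr16:16829314-16829613, minus strand: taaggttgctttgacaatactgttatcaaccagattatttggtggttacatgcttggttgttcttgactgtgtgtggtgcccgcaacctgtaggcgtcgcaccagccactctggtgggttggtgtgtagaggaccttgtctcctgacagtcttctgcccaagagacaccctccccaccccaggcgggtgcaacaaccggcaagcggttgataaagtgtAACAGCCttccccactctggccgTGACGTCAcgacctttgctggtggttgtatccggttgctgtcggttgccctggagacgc
Pgk2, chr17:40208560-40208859, minus strand: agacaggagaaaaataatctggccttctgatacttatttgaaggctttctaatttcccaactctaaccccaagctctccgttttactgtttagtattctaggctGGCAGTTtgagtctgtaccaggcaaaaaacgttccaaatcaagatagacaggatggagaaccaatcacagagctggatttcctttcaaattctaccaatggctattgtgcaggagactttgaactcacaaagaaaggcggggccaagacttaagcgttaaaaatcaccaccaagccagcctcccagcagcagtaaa
Piwil1 has 3 MYB matches, Catsperb 2, Spag6l 1 with 1 CRE, and Pgk2 1. The MYB and CRE letters do not overlap in Spag6l.

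The PIWI pathway, which makes the small RNAs of pachytene cells, rose in part. Of 22 tested genes 11 rose and 5 fell, against 37.9% and 34.4% of all tested genes. Piwil1, the Argonaute-like protein loaded with pachytene small RNAs (ENSMUSG00000029423, chromosome 5, 128702524 to 128755474 on the plus strand in GRCm38, GENCODE M21), stood at 2018, 2399 and 1558 CPM in the PD libraries, against 8.24, 38.1 and 14.6 CPM in the PreL libraries (log2 fold change 6.61 ± 0.74, adjusted p = 2.88e-07, and 7.45 without PreL replicate 2). Its lowest PD library was far above its highest PreL library, replicate 2. The tudor domain genes Tdrd6, Tdrd5 and Tdrd1, of the germ granules, rose, at 2069 ± 56.9 and 31.5 ± 38.7 CPM, 424 ± 73.1 and 21.6 ± 1.94 CPM and 600.1 ± 162 and 110.2 ± 8.42 CPM in PD and PreL. Mael was at 2433 ± 46.9 and 342 ± 41 CPM, Gtsf1 at 256 ± 8.82 and 17.2 ± 6.58 CPM and Pld6, for a mitochondrial processing factor, at 223 ± 33.1 and 23.6 ± 3.45 CPM. Piwil2 was at 348 ± 69.1 and 178 ± 15.8 CPM and stayed just under the 2-fold condition (log2 fold change 0.97 ± 0.17, adjusted p = 7.48e-05), which it passed without PreL replicate 1, at 1.03. Spocd1, which links the pathway to DNA methylation in fetal germ cells, rose to 14.3 ± 3.28 CPM in PD, against 0.471 ± 0.211 CPM in PreL. Fkbp6 fell to 46.9 ± 10.6 CPM in PD, against 440.1 ± 78.9 CPM in PreL, and Btbd18, a regulator of pachytene small RNA genes, to 0.932 ± 0.147 CPM in PD, against 41.1 ± 5.52 CPM in PreL. Piwil4, of fetal germ cells, had 2 reads in PD and was 9.36-fold lower, with an exact 95% counting interval of 2.37 to 81.

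Genes that store and repress transcripts took many of the PD reads. Of 20 RNA-binding and translation genes 10 rose and 5 fell, against 37.9% and 34.4% of all. Ybx2, the germ cell Y-box protein that coats stored RNAs, stood at 5261, 5784 and 5177 CPM in the PD libraries, against 115, 259.7 and 120.2 CPM in the PreL libraries (log2 fold change 5.03 ± 0.31, adjusted p = 1.13e-10). Ybx3, its relative, was at 5031 ± 362 CPM in PD, against 141 ± 60.4 CPM in PreL. The poly(A)-binding protein genes Pabpc1 and Pabpc2 rose, at 6057 ± 179 and 705 ± 34.7 CPM and 1882 ± 180.4 and 31.4 ± 35.1 CPM in PD and PreL; they are near-identical in part, and Pabpc2 is a copy without introns. Ddx25, for a helicase of the male germline, rose to 981 ± 14.8 CPM in PD, against 68.4 ± 15.9 CPM in PreL, and Celf1, for a regulator of splicing and decay, fell to 62.1 ± 8.84 CPM in PD, against 341 ± 69.9 CPM in PreL. Boll, a relative of Dazl, rose to 369 ± 6 CPM in PD, against 64.2 ± 4.29 CPM in PreL, as Dazl fell. Cpeb1, a regulator of poly(A) tails, fell to 4.46 ± 1.84 CPM in PD, against 180.4 ± 39.1 CPM in PreL (log2 fold change -5.33 ± 0.23, adjusted p = 1.53e-12, and -5.98 without PD replicate 1) and its relative Cpeb2 rose to 533 ± 25.6 CPM in PD, against 129.7 ± 36.5 CPM in PreL (log2 fold change 2.04 ± 0.18, adjusted p = 1.04e-08). Ptbp1 and Ptbp2, splicing repressors that replace each other in several tissues, changed in opposite directions: Ptbp1 was at 202 ± 14.2 and 438 ± 82.4 CPM and Ptbp2 at 309.7 ± 26.1 and 116 ± 19.8 CPM, with log2 fold changes of -1.11 ± 0.13 and 1.41 ± 0.13.

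Chaperone genes of the germline rose while some general ones fell. Of 17 tested, 9 rose and 2 fell, against 37.9% and 34.4% of all. Hspa2, the testis HSP70 needed in pachytene cells, stood at 3596, 3623 and 3256 CPM in the PD libraries, against 78.9, 153 and 84 CPM in the PreL libraries (log2 fold change 5.05 ± 0.27, adjusted p = 1.89e-11). Clgn, for the testis form of calnexin, was at 2099.5 ± 78.5 CPM in PD, against 80.8 ± 17.8 CPM in PreL, and Cct6b and Dnajb3 at 452 ± 21.9 and 6.67 ± 6.44 CPM and 604 ± 51.2 and 14.5 ± 10.7 CPM. The general HSP70 gene Hspa8 fell to 30.2 ± 6.56 CPM in PD, against 449 ± 201 CPM in PreL (log2 fold change -3.89 ± 0.39, adjusted p = 8.07e-08). Of the HSP90 pair, Hsp90ab1 fell to 305 ± 46 CPM in PD, against 1988 ± 382 CPM in PreL, and Hsp90aa1 rose to 708 ± 32.1 CPM in PD, against 222 ± 38.7 CPM in PreL. Their log2 fold changes were -2.7 ± 0.15 and 1.67 ± 0.13.

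Of the listed energy genes, most of those of sperm rose, and most of the somatic counterparts fell. Both lists were written with earlier results of these data known, so the counts describe their members only. Of 17 tested sperm-specific or sperm-favoured genes 16 rose, none fell, and the median log2 fold change was 4.47 (5.62 without PreL replicate 2). Of 18 somatic counterparts 13 fell and 4 rose, with a median of −3.20. Among all tested genes 37.9% rose and 34.4% fell. Ldhc, for the testis lactate dehydrogenase, stood at 5473, 5692 and 5515 CPM in the PD libraries, against 11.8, 161 and 34.6 CPM in the PreL libraries (log2 fold change 6.33 ± 1.01, adjusted p = 1.91e-05). Without PreL replicate 2 its log2 fold change was 7.9. Pgam2 was at 1401 ± 40.5 CPM in PD, against 23.4 ± 22.7 CPM in PreL, Pfkp at 487 ± 48.7 CPM in PD, against 6.65 ± 7.75 CPM in PreL, and Cox8c, for a testis subunit of cytochrome oxidase, at 781 ± 50.8 CPM in PD, against 13.5 ± 8.98 CPM in PreL. The ATP carrier gene Slc25a31, at 96.5 ± 8.99 CPM in PD, against 189.7 ± 35 CPM in PreL, was the one not called (log2 fold change -0.97 ± 0.13, adjusted p = 2.21e-06). It was called lower in PD when any library other than PreL replicate 3 was left out, at -1.3 to -1.04. Gapdhs, the sperm glyceraldehyde dehydrogenase gene, rose to 109 ± 22.4 CPM in PD, against 7.61 ± 8.97 CPM in PreL, as Gapdh fell to 1.46 ± 0.247 CPM in PD, against 42.8 ± 11.1 CPM in PreL (log2 fold change -4.86 ± 0.25, adjusted p = 1.08e-11). The testis cytochrome c gene Cyct rose to 173 ± 23.7 CPM in PD, against 7.81 ± 2.52 CPM in PreL, and Cycs, the somatic form, had 3 reads in PD and was 7.1-fold lower, with an exact 95% counting interval of 2.23 to 36.2. Cox8a, the somatic partner of Cox8c, fell to 2.73 ± 0.323 CPM in PD, against 41.8 ± 18.1 CPM in PreL. The 4 somatic-type genes that rose went the other way. Ldha was at 1896 ± 94.8 CPM in PD, against 25.9 ± 29.8 CPM in PreL, Pfkm at 381 ± 24.5 CPM in PD, against 9.42 ± 6.37 CPM in PreL, Eno1 at 126 ± 4.09 CPM in PD, against 15 ± 2.03 CPM in PreL, and Aldoa at 147 ± 6.6 CPM in PD, against 30.3 ± 6.09 CPM in PreL. Ldha lies beside Ldhc and resembles it, and Gapdh, Cycs, Pgk1 and Eno1 have near-identical copies elsewhere, so reads may be shared or lost.

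X-linked genes with an autosomal copy differed from that copy pair by pair. In all 12 pairs with both genes tested, the X-linked gene fell in PD, and in 10 of them the autosomal gene rose. Among all tested X-linked genes 71.3% fell, and among all autosomal genes 38.7% rose. Pgk1, the X-linked phosphoglycerate kinase gene, had 1 read in PD and was 69.1-fold lower, with an exact 95% counting interval of 12.1 to 2754. Pgk2, its copy on chromosome 17, stood at 359, 312 and 402 CPM in the PD libraries, against 1.14, 18 and 3.07 CPM in the PreL libraries (log2 fold change 5.58 ± 0.85, adjusted p = 1.15e-05). Without PreL replicate 2 the log2 fold change of Pgk2 was 7.44. Pdha1, for a subunit of pyruvate dehydrogenase, had 1 read in PD and was 211-fold lower, with an exact 95% counting interval of 37.6 to 8365, while its copy Pdha2 rose to 409 ± 28.9 CPM in PD, against 13.7 ± 4.93 CPM in PreL. The ribosomal protein gene Rpl10 had 0 reads in PD and was at least 141-fold lower there, while Rpl10l rose to 300.4 ± 11.3 CPM in PD, against 20.7 ± 4.37 CPM in PreL (log2 fold change 3.86 ± 0.16, adjusted p = 9.65e-13). The centrin genes Cetn2 and Cetn1 were at 0.276 ± 0.154 and 23 ± 5.84 CPM and at 652 ± 19.5 and 8.8 ± 9.7 CPM in PD and PreL. Cstf2, for a factor of 3' end formation, fell to 8.72 ± 2.64 CPM in PD, against 177 ± 14.2 CPM in PreL, and Cstf2t rose to 98.5 ± 5.01 CPM in PD, against 30.2 ± 1.55 CPM in PreL. Fam50a had 1 read in PD and was 1307-fold lower, with an exact 95% counting interval of 234 to 51646, and Fam50b rose to 271 ± 6.7 CPM in PD, against 4.13 ± 4.66 CPM in PreL. G6pdx, for the first enzyme of the pentose phosphate route, had 1 read in PD and was 746-fold lower, with an exact 95% counting interval of 134 to 29508, and G6pd2 rose to 9.94 ± 2.35 CPM in PD, against 0.768 ± 1.1 CPM in PreL. The zinc finger gene Zfx fell to 0.439 ± 0.128 CPM in PD, against 51.5 ± 7.32 CPM in PreL, and Zfa-ps, its copy on chromosome 10, rose to 12.4 ± 2.64 CPM in PD, against 0.145 ± 0.125 CPM in PreL. Prps1, for a nucleotide precursor enzyme, fell to 1.18 ± 0.0089 CPM in PD, against 102 ± 14.7 CPM in PreL, and Prps1l1 rose to 12.8 ± 1.69 CPM in PD, against 0.242 ± 0.223 CPM in PreL. Ubl4a fell to 1.99 ± 0.125 CPM in PD, against 38.6 ± 9.97 CPM in PreL, and Ubl4b rose to 11 ± 1.82 CPM in PD, against 0.591 ± 0.963 CPM in PreL. The glycerol kinase gene Gk2 rose to 919 ± 39.7 CPM in PD, against 15.2 ± 16.9 CPM in PreL; its X-linked partner was not analysed here. The autosomal genes Utp14b (43 ± 13.9 and 38.6 ± 5.98 CPM, log2 fold change 0.16 ± 0.19, adjusted p = 0.437) and Rbmxl2 (164 ± 38.3 and 126 ± 22.2 CPM, log2 fold change 0.39 ± 0.19, adjusted p = 0.0677) did not pass, although their X-linked partners Utp14a and Rbmx fell, with log2 fold changes of -4.87 ± 0.35 (-5.48 without PD replicate 2) and -7.89 ± 0.4 (-8.79 without PD replicate 1).

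**Figure D4:**
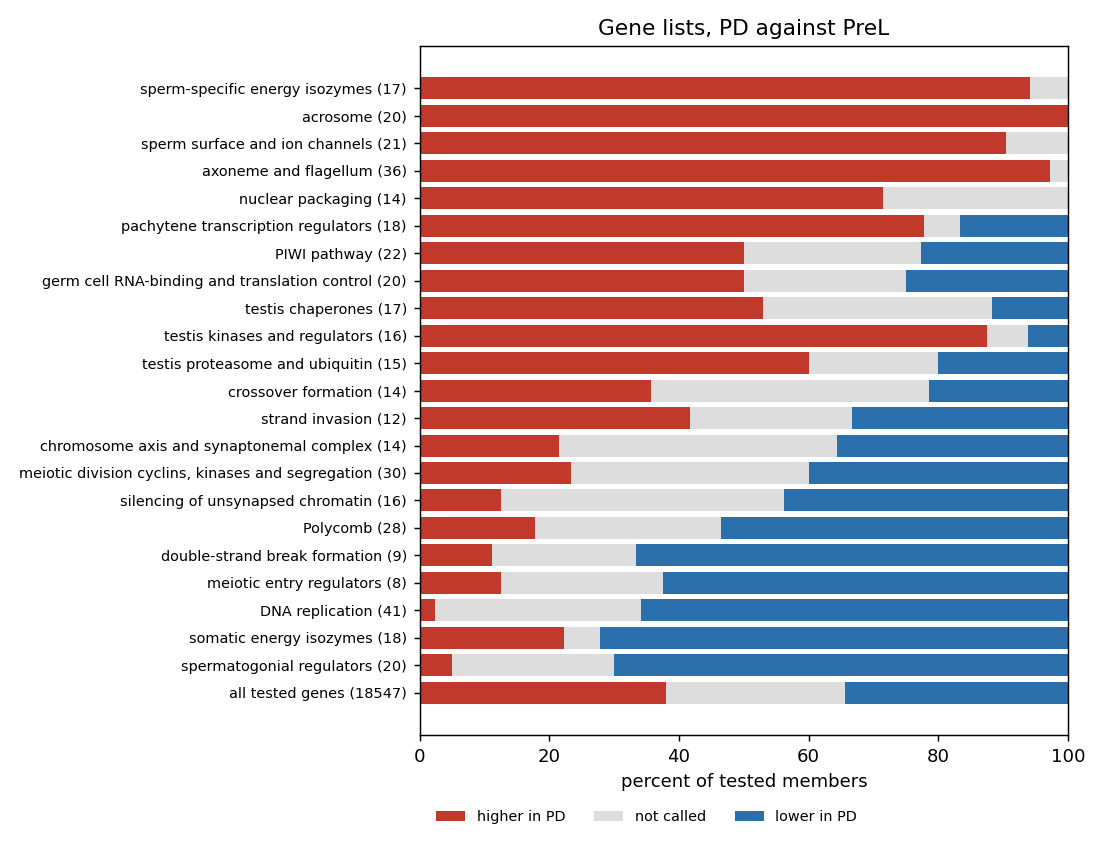
Percent of the tested members of 22 gene lists (number tested in brackets) that were higher in PD (red), not called (grey) or lower in PD (blue), with all 18547 tested genes in the bottom row. The acrosome row is red throughout (20 of 20), and DNA replication has 27 of 41 in blue against 34.4% of all genes.

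Genes of sperm structure were far higher in PD. Over 5 lists (energy, acrosome, sperm surface and channels, axoneme and flagellum, nuclear packaging), 100 of 108 tested genes rose and none fell, with a median log2 fold change of 4.93. Without PreL replicate 2, 100 rose, 1 fell and the median was 6.42. With all libraries 37.9% of all tested genes rose and 34.4% fell. Over all 3258 risen genes with at least 20 CPM in PD, PreL replicate 2 was the highest PreL library for 1902 (58.4%). Their median log2 fold change was 3.26 with all libraries and 3.43 without PreL replicate 2. Dnah8, an outer arm dynein heavy chain gene, stood at 8254, 8174 and 7563 CPM in the PD libraries, against 24.7, 189.6 and 44.2 CPM in the PreL libraries (log2 fold change 6.54 ± 0.72, adjusted p = 2.42e-07). Without PreL replicate 2 its log2 fold change was 7.85. Of 36 genes of the axoneme and flagellum 35 rose, among them Rsph1 of the radial spoke (3068 ± 137 and 32.8 ± 32.3 CPM in PD and PreL), Spag6l of the central pair (1074 ± 44 and 13.8 ± 14.6 CPM) and Dnah17 (1927 ± 87.4 and 26.3 ± 24.1 CPM). The exception was Tubb4b (1044 ± 17.3 and 681 ± 185 CPM, log2 fold change 0.62 ± 0.15, adjusted p = 0.0012).

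All 20 acrosome genes rose, against 37.9% of all tested genes. Their median log2 fold change was 4.62, or 6.67 without PreL replicate 2. Crisp2 stood at 2007, 1880.3 and 2100.4 CPM in the PD libraries, against 4.89, 69.3 and 14.9 CPM in the PreL libraries (log2 fold change 6.07 ± 1.0, adjusted p = 2.72e-05, and 7.66 without PreL replicate 2). PreL replicate 2 held most of the PreL reads of Crisp2, and all PD libraries were above it. Spink2, a protease inhibitor gene of the acrosome, rose to 730.4 ± 11.2 CPM in PD, against 10 ± 10.3 CPM in PreL, Zpbp2, for a zona-binding protein, to 651 ± 77.3 CPM in PD, against 10.1 ± 9.83 CPM in PreL, and Dkkl1 to 1792 ± 32.9 CPM in PD, against 31.6 ± 31.1 CPM in PreL. Acr, the acrosin gene, was at 394 ± 13.3 CPM in PD, against 8.14 ± 10.1 CPM in PreL. Of 21 surface and channel genes 19 rose. Catsperb, for an auxiliary subunit of the sperm calcium channel, was at 228 ± 26.1 CPM in PD, against 2.59 ± 3.07 CPM in PreL (log2 fold change 6.43 ± 0.7, adjusted p = 2e-07, and 8.13 without PreL replicate 2), while the pore genes Catsper1, Catsper3 and Catsper4 were at 31.5 ± 4.7 and 3.52 ± 5.38 CPM, 12.2 ± 1.63 and 1.31 ± 1.16 CPM and 17.4 ± 2.4 and 1.86 ± 2.46 CPM. The ADAM family genes Adam2, Adam5 and Adam32 were at 965 ± 11.9 and 12.4 ± 14.1 CPM, 1991 ± 112 and 28.5 ± 33.8 CPM and 1293 ± 83.6 and 18.4 ± 21.7 CPM. Ace (101 ± 19.5 and 61.9 ± 11.5 CPM) and Tex101 (257 ± 72.2 and 439.96 ± 49.6 CPM) did not pass. Tex101 was called lower without PD replicate 1 or 2, at -1.1 and -1.23. With all libraries the log2 fold changes of Spink2, Zpbp2, Dkkl1 and Acr were 6.18 ± 0.94, 6.0 ± 0.68, 5.82 ± 0.75 and 5.58 ± 0.87, and without PreL replicate 2 they were 7.48, 7.2, 7.02 and 7.4. For the surface and channel genes the median was 4.88 with all libraries and 6.62 without PreL replicate 2.

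Genes that repack the sperm nucleus rose as well. Of 14 tested, 10 rose and none fell, against 37.9% and 34.4% of all. Their median log2 fold change was 3.50, or 5.82 without PreL replicate 2. Tnp2, for a transition protein, stood at 124, 115 and 169.9 CPM in the PD libraries, against 0.512, 8.57 and 2.93 CPM in the PreL libraries (log2 fold change 5.07 ± 0.76, adjusted p = 1.05e-05, and 6.37 without PreL replicate 2). The protamine gene Prm1 stood at 68.6, 62.1 and 97.9 CPM in the PD libraries, against 0.455, 4.78 and 2.07 CPM in the PreL libraries (log2 fold change 4.95 ± 0.85, adjusted p = 4.32e-05, and 5.98 without PreL replicate 2). PreL replicate 2 was the highest PreL library for both, and below every PD library. Tnp1 and Prm2 rose, at 44.9 ± 9.1 and 1.08 ± 1.25 CPM and 96.7 ± 24.3 and 3.18 ± 2.74 CPM in PD and PreL. The histone variant genes H2afy and H2afz rose, at 202 ± 34.6 and 31.3 ± 2.3 CPM and 63 ± 8.39 and 17.1 ± 4.2 CPM. The 12 spermatid markers, which include Tnp1, Tnp2, Prm1 and Prm2, summed to 857, 659 and 964 CPM in the PD libraries and to 7.22, 111 and 23.2 CPM in the PreL libraries. Relative to the mean of the spermatid group (RS) they stood at medians of 12.6%, 8.42% and 12.5% in PD and of 0.105%, 2.13% and 0.482% in PreL. The 85 late genes used above, which include most of the spermatid markers, stood at medians of 74.4% to 84.5% of RS in PD. They were chosen for having risen to at least 20 CPM in PD, so a high share there is partly set by the choice. The part of spermatid RNA in the rise of the packaging genes was not tested.

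Genes of the meiotic divisions moved in both directions. Of 30 tested, 7 rose, 12 fell and the median log2 fold change was −0.14, against 37.9% risen and 34.4% fallen of all tested genes. The cyclin A genes changed in opposite directions. Ccna1, the germline form, stood at 366, 288 and 426 CPM in the PD libraries, against 1.82, 13 and 4.43 CPM in the PreL libraries (log2 fold change 5.8 ± 0.76, adjusted p = 2.12e-06, and 6.87 without PreL replicate 2), and Ccna2, the somatic form, at 2.74, 2 and 1.76 CPM in the PD libraries, against 405, 275 and 421 CPM in the PreL libraries (log2 fold change -7.39 ± 0.23, adjusted p = 8.49e-14). Neither pair of groups overlapped. Cyclin B2 gene Ccnb2 rose to 277 ± 16.5 CPM in PD, against 106 ± 14.4 CPM in PreL, Ccnb1 fell to 21.7 ± 6.79 CPM in PD, against 49.5 ± 9.81 CPM in PreL, and the X-linked Ccnb3 fell to 0.187 ± 0.092 CPM in PD, against 27.1 ± 2.27 CPM in PreL. The kinase genes Aurka and Nek2 rose, at 516 ± 58.2 and 126 ± 23.4 CPM and 645 ± 8.69 and 114 ± 17.7 CPM in PD and PreL. Of the phosphatases that switch on Cdk1, Cdc25b had 3 reads in PD and was 846-fold lower, with an exact 95% counting interval of 289 to 4105, and Cdc25c fell to 8.93 ± 2.55 CPM in PD, against 30.9 ± 7.24 CPM in PreL. Cdk1 itself was at 100.5 ± 12.5 CPM in PD, against 99.7 ± 26.9 CPM in PreL (log2 fold change 0.01 ± 0.24, adjusted p = 0.969). Plk1 (241 ± 47.6 and 291 ± 70 CPM) and Espl1 (405 ± 57.7 and 409.6 ± 74.8 CPM), the separase gene, did not pass. Sgo1, a protector of cohesion, fell to 2.34 ± 0.89 CPM in PD, against 53.7 ± 10.8 CPM in PreL.

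Polycomb genes, whose products mark and compact repressed chromatin, fell more often than they rose. Of 28 tested, 15 fell and 5 rose, against 34.4% and 37.9% of all. The deepest falls were in genes of PRC1, the complex that compacts chromatin. Its reader gene Cbx2 was at 1.81 ± 0.378 and 179.8 ± 31.9 CPM in PD and PreL, and its ring finger gene Pcgf2 at 0.493 ± 0.288 and 133 ± 30.8 CPM. Cbx8 had 3 reads in PD and was 407-fold lower, with an exact 95% counting interval of 139 to 1976. Pcgf6, of a variant PRC1 complex of the germline, rose to 181 ± 17.2 CPM in PD, against 4.63 ± 2.38 CPM in PreL (log2 fold change 5.28 ± 0.31, adjusted p = 7.39e-11), Cbx7 to 113 ± 10.9 CPM in PD, against 9.49 ± 0.375 CPM in PreL (log2 fold change 3.57 ± 0.21, adjusted p = 5.27e-11) and Phf1 to 568 ± 15.7 CPM in PD, against 61.9 ± 5.39 CPM in PreL (log2 fold change 3.2 ± 0.15, adjusted p = 3.06e-12). The methyltransferase gene Ezh2 was at 105 ± 11 CPM in PD, against 117 ± 13.7 CPM in PreL, and did not pass.

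Testis kinases and their regulators rose, 14 of 16 tested against 37.9% of all, with a median log2 fold change of 2.62. Ppp3r2, for the testis subunit of calcineurin, reached 971 ± 35.4 CPM in PD, against 12.2 ± 13.6 CPM in PreL (log2 fold change 6.31 ± 0.97, adjusted p = 1.31e-05, and 7.8 without PreL replicate 2), and its catalytic partner Ppp3cc 462 ± 5.65 CPM in PD, against 69.2 ± 7.16 CPM in PreL. Stk33 was at 781 ± 33.3 CPM in PD, against 16.3 ± 12 CPM in PreL, and Tssk2 and Tssk4, kinase genes of spermatids, at 41.7 ± 6.44 and 4.21 ± 4.5 CPM and 24.6 ± 3 and 2.68 ± 3.5 CPM. Calm2 and Calm3, for calmodulin, rose, at 1392 ± 191 and 338 ± 104 CPM and 1025 ± 82.9 and 264 ± 48.7 CPM in PD and PreL. Camk4 fell to 6.27 ± 0.829 CPM in PD, against 25.7 ± 4.24 CPM in PreL. Of 15 proteasome and ubiquitin genes 9 rose and 3 fell, against 37.9% and 34.4% of all. Psma8, the germline form of a core proteasome subunit, stood at 277, 279 and 214 CPM in the PD libraries, against 10.3, 14.6 and 14.1 CPM in the PreL libraries (log2 fold change 4.3 ± 0.23, adjusted p = 2.01e-11), and Psma7, the general form it replaces, at 9.33, 9.65 and 6.05 CPM in the PD libraries, against 124, 93.3 and 195 CPM in the PreL libraries (log2 fold change -4.04 ± 0.28, adjusted p = 4.85e-10). In both, the groups did not overlap, and the changes ran in opposite directions. The polyubiquitin gene Ubb rose to 888 ± 44.8 CPM in PD, against 171 ± 38.4 CPM in PreL. Rnf133 and Klhl10, for ligase parts of spermatids, rose, at 12.5 ± 2.17 and 0.475 ± 0.593 CPM and 54.8 ± 10.7 and 7.02 ± 7.74 CPM.

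Genes that silence unsynapsed chromosomes were mostly not higher in PD. Of 16 tested, 2 rose and 7 fell, against 37.9% and 34.4% of all. Atr, the kinase that spreads the silencing signal, was at 220.2 ± 14.2 CPM in PreL, 975 ± 93.3 CPM in LZ and 615 ± 40.7 CPM in PD (log2 fold change 1.48 ± 0.13, adjusted p = 1.19e-08), and Mdc1, its adaptor, at 239 ± 56 CPM in PreL, 1272 ± 234 CPM in LZ and 829 ± 102 CPM in PD (log2 fold change 1.79 ± 0.18, adjusted p = 7.24e-08). Brca1 fell to 6.83 ± 0.675 CPM in PD, against 163 ± 15.7 CPM in PreL (log2 fold change -4.57 ± 0.29, adjusted p = 2.01e-10), Topbp1 to 125 ± 25.4 CPM in PD, against 375 ± 59.1 CPM in PreL, and the X-linked Scml2, which recruits further silencing marks, to 2.34 ± 0.529 CPM in PD, against 353 ± 33 CPM in PreL (log2 fold change -7.23 ± 0.19, adjusted p = 3.19e-14). The checkpoint kinase gene Chek1 fell to 4.76 ± 1.39 CPM in PD, against 69.3 ± 11.1 CPM in PreL, and Etaa1, an activator of Atr, to 10.3 ± 1.41 CPM in PD, against 39.2 ± 6.47 CPM in PreL. H2afx, for the histone that carries the signal, was at 99.95 ± 16.4 CPM in PD, against 127 ± 29.1 CPM in PreL, and did not pass.

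The X chromosome gave few reads in PD. Its 750 tested genes took 0.0805%, 0.0556% and 0.0707% of the reads of tested genes in the PD libraries, against 2.73%, 2.58% and 2.59% in the PreL libraries and 2.69% to 2.92% in LZ. Of these genes 535 fell (71.3%) and 146 rose (19.5%), with a median log2 fold change of −5.14. Of the 17658 autosomal genes 32.9% fell and 38.7% rose, with a median of 0.20, and no autosome had a median below −0.03. Of the 278 X-linked genes with at least 10 CPM in PreL, 277 fell, 223 of them at least 32-fold, and the median log2 fold change was −7.74. Huwe1, for a large ubiquitin ligase, stood at 12.4, 8.1 and 10.7 CPM in the PD libraries, against 1752, 1110.2 and 1002 CPM in the PreL libraries (log2 fold change -6.95 ± 0.23, adjusted p = 1.34e-13). Uba1, for the ubiquitin-activating enzyme, was at 16.8 ± 5.16 CPM in PD, against 612 ± 118 CPM in PreL, the predicted gene Gm1141 at 14.9 ± 2.92 CPM in PD, against 79.6 ± 18.4 CPM in PreL, Cul4b, for a ligase scaffold, at 14.1 ± 2.93 CPM in PD, against 155 ± 22.8 CPM in PreL, and Usp26, a testis ubiquitin protease gene, at 0.961 ± 0.705 CPM in PD, against 277 ± 70.5 CPM in PreL. On the Y chromosome 16 of 32 tested genes rose (50%) and 10 fell (31.2%), against 37.9% and 34.4% of all tested genes. The median log2 fold change of these 32 genes was 2.86, and their CPM summed to 25 in PD and 355 in PreL. Among those with the most PreL reads, named after their values were seen, Ddx3y had 2 reads in PD and was 653-fold lower, with an exact 95% counting interval of 180.5 to 5394, Uba1y fell to 1.8 ± 1.08 CPM in PD, against 149 ± 14.4 CPM in PreL, and Eif2s3y to 7.49 ± 2.16 CPM in PD, against 86.3 ± 15.7 CPM in PreL.

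**Figure D5:**
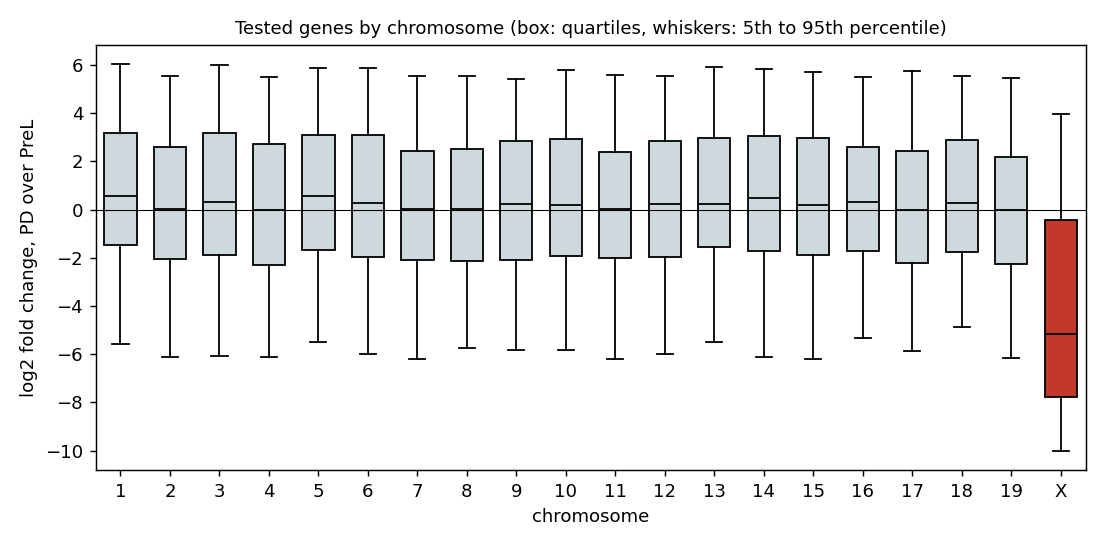
Log2 fold change, PD over PreL, of the tested genes of each autosome and the X chromosome; boxes are quartiles with the median, and whiskers run from the 5th to the 95th percentile. The X chromosome has a median of −5.14, and the autosome medians lie between −0.03 and 0.58.

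The 146 X-linked genes that rose were low. Their median level was 1.16 CPM in PD and 0.11 CPM in PreL, and 2 of them reached 10 CPM in PD. These were Akap4, for the main protein of the sperm fibrous sheath, at 125, 82.1 and 123 CPM in the PD libraries, against 0.569, 15.6 and 1.43 CPM in the PreL libraries (log2 fold change 4.21 ± 0.82, adjusted p = 0.000155), and Tsga8 at 89.2, 60 and 70.1 CPM in the PD libraries, against 0.341, 13.7 and 0.928 CPM in the PreL libraries (log2 fold change 3.85 ± 0.9, adjusted p = 0.000861). In both, PreL replicate 2 held most of the PreL reads, and without it the log2 fold changes were 6.82 and 6.88. Of the 146 genes, 145 had a higher mean in RS than in PD, and in the 3 PD libraries they stood at medians of 10.8%, 6.84% and 8.85% of RS. The spermatid markers stood at 12.6%, 8.42% and 12.5% in the same libraries, with PD replicate 2 the lowest in both. The part of spermatid RNA in these rises was not tested. The count was 70 with the PD and PreL libraries fitted alone and 141 of the 146 rose without PreL replicate 2.

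Gene classes differed as well. Of 2021 tested long non-coding RNA genes 1296 rose (64.1%) and 318 fell (15.7%), with a median log2 fold change of 2.94. Of 15363 protein-coding genes 34.3% rose and 37.4% fell. Rbakdn had the most PD reads of the non-coding genes, was named after its values were seen, and stood at 1119.7, 1203 and 1135 CPM in the PD libraries, against 4.15, 34.9 and 8.93 CPM in the PreL libraries (log2 fold change 6.17 ± 0.91, adjusted p = 8.3e-06, and 7.47 without PreL replicate 2). Reads of non-coding genes that overlap another gene cannot be assigned where strand was not counted, and the strand setting was not given. Mitochondrially encoded genes took 0.872%, 0.704% and 0.755% of reads in the PD libraries, against 4.42%, 2.93% and 6.38% in the PreL libraries. Of 13 tested, 10 fell and none rose, against 34.4% and 37.9% of all. The cytochrome oxidase gene mt-Co1 stood at 4191, 3461 and 3801 CPM in the PD libraries, against 11336, 7016 and 14544 CPM in the PreL libraries (log2 fold change -1.52 ± 0.24, adjusted p = 1.37e-05), with no overlap between the groups.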

How the data were processed

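RNA of sorted cells was sequenced as single reads, per the labels' protocols. The deposited values are raw read counts per gene, 46603 genes in 18 libraries. The submitters' processing notes name cutadapt, STAR 2.4.2a, HTSeq, DESeq2 and GRCm38, without roles; the annotation release, strand setting and filters were not given. Gene IDs were matched to GENCODE M21 (46091 IDs, 98.9%).

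Counts as deposited were fitted with edgeR 4.0.16 (R 4.3.3): filterByExpr over 6 groups left 18547 genes, TMM scaling, 1 quasi-likelihood fit of all 18 libraries, which share the estimate of spread, and Benjamini-Hochberg adjustment over all tested genes. All fold changes, standard errors and adjusted p-values come from this fit, and CPM use its scaled library sizes. A gene was called at an adjusted p under 0.05 and at least 2-fold. Alternatives were DESeq2 1.42.0, RLE or library-size scaling, other low-count filters, the 6 libraries alone, a replicate block, other fold conditions and each library left out.

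With 0 reads in a group, the fold is a bound from a floor of 3 reads over its 3 libraries, and with 1 to 3 reads a ratio of summed reads with an exact 95% interval. Both cover counting error only. Named genes are the 8 largest rises and falls of at least 50 CPM, the 8 called genes of most reads per group, the 4 X-linked genes of most PD reads, the strongest members of each list, the X-linked pairs and the genes most above or below both groups in LZ. The largest rises and falls were taken among genes whose groups did not overlap, leaving out predicted, Riken and mitochondrially encoded genes. Other list members and genes said to be named after their values were seen are extra. A few genes that these rules name are not reported here. Members and lists were chosen with earlier results of these data known. Promoter windows come from RefSeq (GRCm38.p6). Ankrd31, Spata22, Rnf212b, Catspere, Gsg2 and Gyk were not analysed here.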

Additional observations from a re-analysis of the deposited data

How the results depend on the processing

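Counts of higher and lower genes stayed within 1.5 times of 7038 and 6385 under every alternative run: 7167 and 6247 with RLE scaling, 5875 and 7755 with the total library size only, 7902 and 6939 without a low-count filter, 6760 and 6220 with a filter of 1 CPM in 3 libraries, 5720 and 5732 with the PD and PreL libraries alone, 7064 and 6192 with DESeq2, 8046 and 7453 without a fold condition, and 5605 and 4745 at 4-fold. Leaving out 1 library gave 6459 to 7186 higher and 6254 to 6933 lower genes, 125 to 151 X-linked higher and 536 to 549 X-linked lower genes, and 100 to 101 higher late genes. Lower genes outnumbered higher ones when a PD library was left out. The higher and lower counts were 6462 and 6933 without PD replicate 1, 6604 and 6932 without replicate 2, and 6459 and 6916 without replicate 3. The count of X-linked higher genes, 146, was 70 with the 6 libraries alone; the cause was not tested. Whether replicate numbers pair the libraries was not settled. Deviations of same-numbered PD and PreL libraries correlated at −0.0164, −0.144 and −0.106, and those of other pairs at -0.0929 to 0.146. With 3 libraries per group these values cannot tell whether the numbers pair. With a replicate block 7015 genes were higher and 6357 lower. Of 271 named genes, 22 lost or gained a call somewhere and 6 turned sign, none of them called in the fit of all libraries. Cdk1 had a log2 fold change of -0.58 with the total library size only, -0.01 without a filter, -0.03 with the 6 libraries alone and -0.32 to 0.14 without 1 library. Espl1 was at 0.05 with RLE scaling, 0.05 with DESeq2 and -0.38 to 0.14 without 1 library. With the total library size only Rbm46 was at -0.27, Rbmxl2 at -0.22, Star at -0.31 and Utp14b at -0.45. Without 1 library Star was at -0.12 to 0.44 and Utp14b at -0.41 to 0.28. Rhox5, at 8 PreL reads, was not called without PreL replicate 3. Depth limits the falls: 603 fallen genes had no read in PD, so their size has only a lower bound.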
